A study of Mus musculus with 4 samples.

Results

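The genes described here are the 39 mouse Hox genes, found by symbol (Hox, a cluster letter from a to d and a paralogue number from 1 to 13, without antisense genes) among the 20877 named genes of the array, with the brightest probe standing for each gene. They were measured in cardiomyocytes derived from CGR8, a mouse embryonic stem cell line, on 4 one-colour Agilent arrays. Cells of the siScr group (2 samples) had been transfected for 48 hours with a scrambled small interfering RNA, and cells of the siErbB4 group (2 samples) for the same time with a small interfering RNA against Erbb4, a receptor tyrosine kinase that binds neuregulins. All samples shared the cell line, a low-glucose medium with 2% serum and labelling from 200 ng of total RNA. Incubation is given as 6 or 24 hours in the growth protocol, and the labels do not assign these times to samples. Groups follow the sample titles and the transfection field. Other fields conflict with this: scrambled RNA is given in the description of every sample, siErbB4 included, and ErbB5 in place of ErbB4 in the source name of siErbB4 2. The labels do not say whether replicates came from separate differentiations, so p-values between the groups measure the spread between these samples, which may be technical. Each group is a bulk culture of a single cell line, in which fewer cells of a type and less RNA per cell cannot be told apart.

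Hox genes encode homeodomain transcription factors that give cells their position along the head-to-tail axis. In the mouse they lie in 4 clusters, and within a cluster genes with low paralogue numbers are switched on earlier and nearer the head than genes with high numbers. Retinoic acid, Wnt and FGF signals and the Cdx factors open the clusters, Polycomb complexes keep them silent and MLL complexes keep them active, and many Hox proteins bind DNA with PBX and MEIS partners. In the embryo, anterior Hox genes mark the posterior part of the second heart field, from which the atria and the outflow tract receive cells. Fibroblasts and other mesenchymal cells keep a Hox pattern that reflects where in the body they arose.

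The Erbb4 probe had processed signals of 9.02 on siScr 1, 11.9 on siScr 2, 2.83 on siErbB4 1 and 15.04 on siErbB4 2. It was well above background, a flag of the scanner software, on 1 array, siErbB4 2, where it was also brightest. On that array it goes against the label, and at signals this dim it gives no check of the others. Group names below are those of the labels, and every direction between the groups rests on them. The 4 arrays lay on 1 slide. Their 75th percentile of processed signal, to which all values were scaled, ran from 878 to 989, and the share of probes with the flag from 64.8% to 68.5%. The lowest signal of a probe with that flag ran from 9.14 to 12.04, which sets how far a dim Hox probe can be read, and no spot was saturated. All 17 cardiomyocyte markers on the list, Myh6 and Tnnt2 among them, passed the filter on dim probes, and so did 16 of 16 pluripotency markers and 20 of 22 fibroblast and matrix markers.

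Promoter sequence is shown for 3 genes of the cluster on chromosome 11, which was the most fully detected and held 4 of the 6 genes that differed between replicate numbers at an adjusted p under 0.05 (limma). Each is the 250 bases before the RefSeq start of the gene (build GRCm38.p6, plus strand, 5′ to 3′), with motif matches in capitals. The RefSeq table used held 24 such windows for 22 Hox genes, and of those 6 called genes it held Hoxb4 alone. Hoxb4 at chr11:96318017-96318266 held 1 match to AGGTCA, the core motif of nuclear receptors such as those for retinoic acid. Hoxb8 at chr11:96281655-96281904 held 6 matches to TTTAT, a core bound by posterior HOX and CDX proteins, and 1 to TGATNNAT, a composite motif of PBX with HOX. Hoxb1 at chr11:96365508-96365757, the gene with the lowest number in the cluster and the only one of it not detected on any array, held 1 match to TGATNNAT.
Hoxb4: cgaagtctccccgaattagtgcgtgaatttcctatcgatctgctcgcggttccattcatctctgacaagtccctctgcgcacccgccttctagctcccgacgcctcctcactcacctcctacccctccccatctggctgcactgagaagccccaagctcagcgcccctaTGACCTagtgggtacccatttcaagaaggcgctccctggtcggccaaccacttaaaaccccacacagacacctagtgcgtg
Hoxb8: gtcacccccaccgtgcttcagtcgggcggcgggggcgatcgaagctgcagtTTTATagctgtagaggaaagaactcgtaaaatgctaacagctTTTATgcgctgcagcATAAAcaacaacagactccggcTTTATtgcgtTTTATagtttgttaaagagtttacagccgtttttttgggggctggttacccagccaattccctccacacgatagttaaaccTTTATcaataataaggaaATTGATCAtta
Hoxb1: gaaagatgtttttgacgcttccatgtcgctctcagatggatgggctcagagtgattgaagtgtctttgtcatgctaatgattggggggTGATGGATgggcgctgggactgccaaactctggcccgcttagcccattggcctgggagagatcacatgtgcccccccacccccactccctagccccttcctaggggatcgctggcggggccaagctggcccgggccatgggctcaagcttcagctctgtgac
Both strands were searched, and a match on the minus strand shows as the reverse complement. The motifs were counted separately, without regard to overlap between them. Among 32851 windows of the same length, TGATNNAT occurred in 7.68% of them, TTTAT in 37.3% and AGGTCA in 4607. Among the 24 Hox windows they occurred in 4, 9 and 6. A match describes these letters and shows no binding.

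Of the 39 Hox genes, 24 were well above background on at least 1 array, 12 of them on all 4, and 15 on none. The cluster on chromosome 11, Hoxb, was the most fully detected, with 9 of its 10 genes well above background on at least 1 array. Cluster A on chromosome 6 had 7 of 11, cluster C on chromosome 15 had 6 of 9, and cluster D on chromosome 2 had 2 of 9. The 12 genes detected throughout spanned all 4 clusters and included Hoxa7 and Hoxa9, Hoxb2, Hoxb3, Hoxb4, Hoxb6 and Hoxb9, Hoxc6, Hoxc12 and Hoxc13, and Hoxd8. Hoxd9, Hoxd10, Hoxd11, Hoxd12 and Hoxd13, which pattern the limbs and the caudal trunk, were below that flag on every array. The flag was also absent everywhere for Hoxa2, Hoxa5, Hoxa10, Hoxa13, Hoxb1, Hoxc8, Hoxc10, Hoxc11, Hoxd1 and Hoxd3. A probe without the flag gives a bound and no level, so these genes may be transcribed at levels the arrays could not measure.

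More Hox genes were detected on the arrays numbered 1 than on those numbered 2. The count was 22 on siScr 1, 13 on siScr 2, 18 on siErbB4 1 and 15 on siErbB4 2, while over all probes the share with the flag was 68.5%, 64.8%, 65.9% and 67.0%, and its part in the Hox counts was not tested. Cluster B carried the widest gap, with 9, 5, 8 and 6 genes on the arrays in that order. Cluster A had 6, 3, 5 and 4, while cluster C ran from 4 to 5 and cluster D from 1 to 2. By paralogue number, genes 5 to 8 had 8, 4, 7 and 5 of 11 detected, genes 1 to 4 had 7, 5, 6 and 6 of 12, and genes 9 to 13 had 7, 4, 5 and 4 of 16. No test was made of these counts.

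On siScr 1 the count included 6 genes that carried the flag there and nowhere else. They were Hoxa3, needed for the thymus and parathyroid, Hoxa11, a forelimb gene, and Hoxb8, Hoxc5, Hoxc9 and Hoxd4. Hoxb8 had a processed signal of 53.1 on siScr 1 against 4.10 on siScr 2, 10.03 on siErbB4 1 and 3.53 on siErbB4 2. Hoxc9 read 21.9, 4.23, 11.8 and 4.15 on the same arrays, and Hoxa11 read 20.3, 4.13, 8.36 and 9.08. All values but those of siScr 1 lie below the flag and have no order among themselves. Hoxb5 and Hoxb13 carried the flag on both arrays numbered 1 and on neither numbered 2. Hoxa6 had it on siErbB4 1 alone, where its signal was 14.8, beside 9.60 to 12.2 on the others.

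The comparison that the study was built for, siErbB4 against siScr, was tested on the 20726 features whose probe had the flag on both siScr arrays, on both siErbB4 arrays or on all. This filter kept 15 Hox genes. limma called 0 of 15 after Benjamini-Hochberg adjustment at 0.05, beside 0.0% of all features tested. At an unadjusted p under 0.05 it also counted 0 of 15, beside 1.76% of all features. The median log2 difference over the 15 genes was -0.09, with 6 above and 9 below 0, against -0.01 over all features, of which 47.2% were above 0. Hoxa4, Hoxb7 and Hoxc4 passed the filter only through siErbB4, where they have the flag on both arrays, so their positive differences and their part in these counts and in the median are not independent of the filter. Over the 12 genes well above background on all arrays the median was -0.15. No Hox gene had a difference of 1 or more in size, beside 0.584% of all features. With 2 residual degrees of freedom the fit is insensitive, as the intervals show: that of Hoxb9, the widest, ran from -3.74 to 2.15. The fit held no term for the replicate number, so differences between the numbers count within these intervals as well.

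Hoxd8, the only tested gene of cluster D, came closest. Its processed signals were 25.4 and 19.0 on the siScr arrays and 18.0 and 15.1 on the siErbB4 arrays. Both siErbB4 arrays lay below both siScr arrays after scaling, and the log2 difference was -0.43 (SE 0.17, 95% interval -0.91 to 0.05). Hoxa9, a gene of the posterior trunk and of blood progenitors, read 32.1 and 27.4 in siScr and 25.4 and 25.0 in siErbB4. Its groups did not overlap either, with a log2 difference of -0.25 (SE 0.13). Hoxc12 was the third gene lower on both siErbB4 arrays, at 21.7 and 20.3 against 18.8 and 19.4 and a log2 difference of -0.15 (SE 0.13), which turned to 0.033 with another background correction (normexp).

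Hoxa4 and Hoxa7 were the only tested Hox genes higher on both siErbB4 arrays, for Hoxa7 after scaling alone. Hoxa4, a gene of the cervical vertebrae, read 10.6 and 9.76 in siScr and 11.4 and 11.6 in siErbB4, close to the lowest signals with the flag, with a log2 difference of 0.16 (SE 0.13). It was not well above background on siScr 2 and passed the filter through siErbB4 alone. Hoxa7 read 41.0 and 35.0 in siScr and 45.9 and 40.1 in siErbB4, with a log2 difference of 0.17 (SE 0.14). In all, 5 of 15 Hox genes did not overlap between the groups, beside 29.0% of all features, so the share was near the background. For 11 of the 15 the difference had the same sign whether taken between the arrays numbered 1 or between those numbered 2, beside 61.6% of all features.

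The other 10 genes overlapped between the groups. Hoxb9, a thoracic gene, had the largest difference of the 15 at -0.80 and also the largest SE, 1.07, because siScr 1 at 171 and siErbB4 1 at 69.3 stood far above siScr 2 at 26.3 and siErbB4 2 at 22.0. Hoxc4 differed by 0.36 (SE 0.31; -0.043 with normexp), Hoxb7 by 0.33 (SE 0.41) and Hoxb4 by -0.34 (SE 0.52). The log2 differences of Hoxb2, Hoxb3, Hoxb6, Hoxc6 and Hoxc13 lay between -0.17 and 0.02, with SEs from 0.23 to 0.60, and that of Hoxb3 was 0.017 when its probes were averaged. By cluster the medians were 0.16 over 4 genes of cluster A, -0.10 over 6 of cluster B and -0.12 over 4 of cluster C. Without siScr 1 the median over the 15 genes was 0.13 and without siErbB4 2 it was 0.14, so its sign rested on single arrays.

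**Figure D1:**
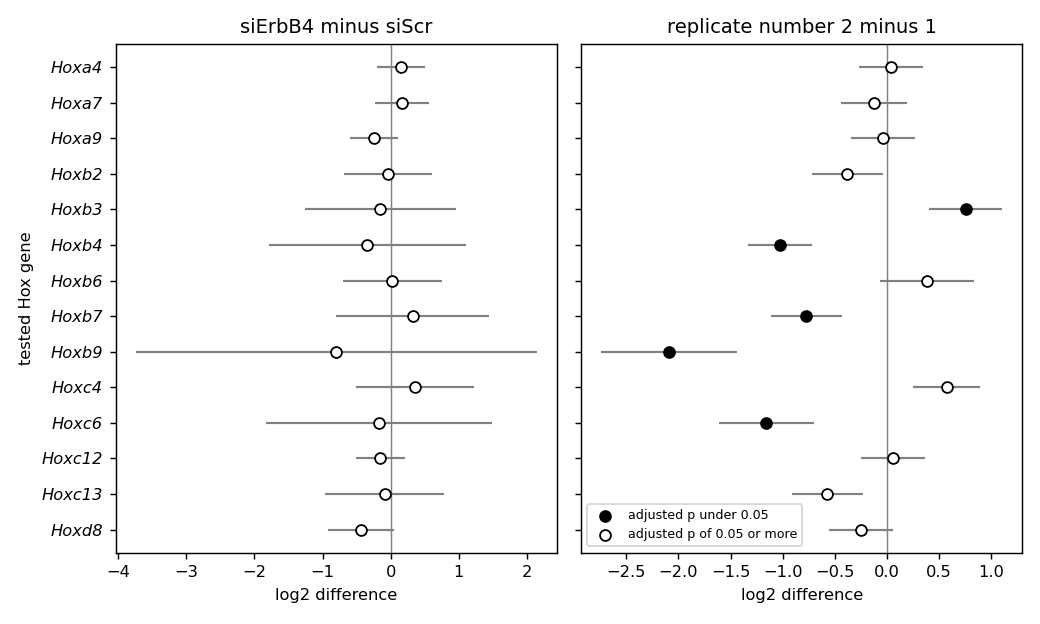
Log2 difference of tested Hox genes (14 of 15) between siErbB4 and siScr (left) and between replicate number 2 and 1 (right), with 95% limma intervals and filled points where the adjusted p was under 0.05. The axes have different ranges: every interval on the left crosses 0, and 5 points on the right are filled.

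The arrays were also compared by replicate number, because the plan for the Hox genes asked for a comparison between replicates. The labels do not say what the number marks. It goes with the place on the slide, since arrays numbered 1 lay at positions 3 and 4 and those numbered 2 at positions 1 and 2, and the number and the position cannot be told apart. The model held the group as a term, which left 1 residual degree of freedom. No array repeats a number within a group. The p-values here therefore measure how far the number difference disagreed between siScr and siErbB4, which may be technical too. Hoxb9, Hoxc6, Hoxb4 and Hoxb7 were among the Hox genes lower on the arrays numbered 2, and Hoxb3 was higher. In all, 6 of 15 Hox genes passed an adjusted p under 0.05, beside 7.31% of all features: 5 were lower, beside 3.55%, and 1 was higher, beside 3.76%. The calls are close to the threshold, with adjusted p from 0.025 to 0.049 by limma in the fit to all 4 arrays. When 1 array was left out and the group term with it, 1 of the numbers held 1 array, so sizes are given here without calls. The log2 difference then ran from -2.71 to -1.47 for Hoxb9 and from -1.37 to -0.94 for Hoxc6. It ran from -1.21 to -0.84 for Hoxb4, -0.99 to -0.55 for Hoxb7 and 0.61 to 0.90 for Hoxb3. With all 4 arrays limma called 1 of 15, Hoxc6, without the group term, beside 5.23% of all features. Without the filter on dim probes it called 0 of 39 Hox genes and 0 of all 32388 features.

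Hoxb9 had the largest difference. Its processed signal was 171 on siScr 1 and 26.3 on siScr 2, a ratio of 5.79-fold after scaling, and 69.3 on siErbB4 1 and 22.0 on siErbB4 2, a ratio of 3.13-fold. Both arrays numbered 1 were above both numbered 2, and the log2 difference was -2.09 (SE 0.24, adjusted p = 0.027 by limma). Hoxc6, also a thoracic gene, read 85.5 and 60.6 on the arrays numbered 1 and 28.5 and 32.3 on those numbered 2. That is 2.67-fold in siScr and 1.86-fold in siErbB4, with a log2 difference of -1.16 (SE 0.17, adjusted p = 0.036). The 2 genes lie in different clusters and on different chromosomes.

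Hoxb4, a gene of the hindbrain and neck that also drives the growth of blood stem cells, read 358 and 264 on the arrays numbered 1 and 153 and 131 on those numbered 2. The ratio was 2.07-fold in siScr and 2.00-fold in siErbB4, the log2 difference -1.03 (SE 0.11, adjusted p = 0.025). Its promoter window, with an AGGTCA match, is the one shown among the called genes.

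Hoxb7 read 17.2 and 18.9 on the arrays numbered 1 and 8.23 and 11.98 on those numbered 2, with a log2 difference of -0.77 (SE 0.13, adjusted p = 0.045). It lost the flag on siScr 2, and with normexp its log2 difference was -0.26 (adjusted p = 0.16). Hoxb3, a hindbrain gene next to Hoxb4, ran the other way. Its brighter probe read 561 and 529 on the arrays numbered 1 and 923 and 808 on those numbered 2, a log2 difference of 0.76 (SE 0.13, adjusted p = 0.049). A dimmer probe for Hoxb3 read between 20.2 and 24.2 on all arrays and differed by 0.16 in siScr and 0.13 in siErbB4. In the RefSeq annotation the Hoxb3 and Hoxb4 gene models overlap, so the probes of these genes may not be wholly separate. When the probes of a gene were averaged, the log2 difference of Hoxb3 was 0.45 with an adjusted p of 0.11. With quantile normalization the adjusted p was 0.055 for Hoxb3 and 0.054 for Hoxb7.

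**Figure D2:**
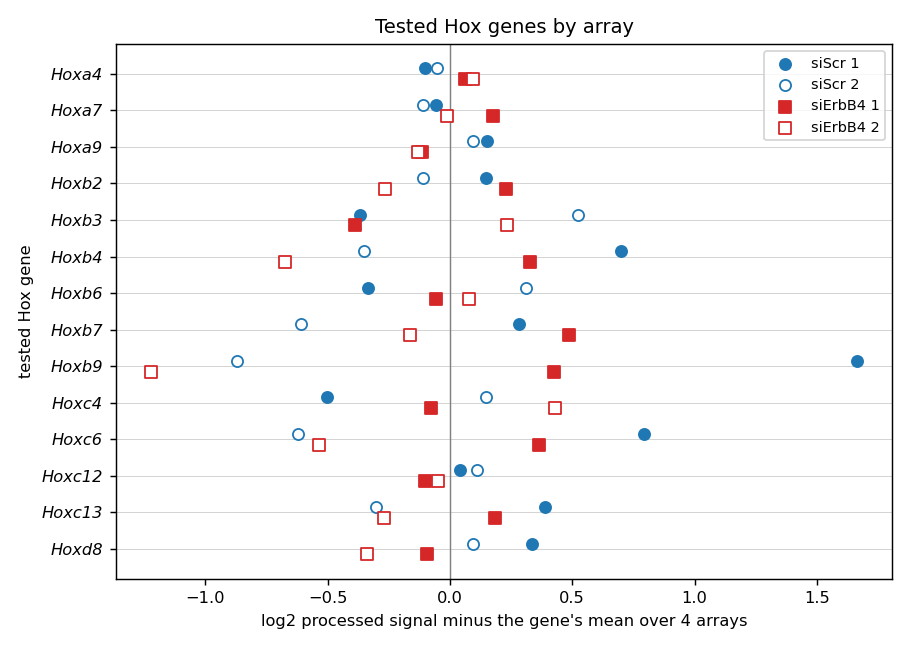
Tested Hox genes (14 of 15) on the 4 arrays as the log2 processed signal minus the gene's own mean, with filled symbols for arrays numbered 1 and open symbols for arrays numbered 2. For Hoxb4, Hoxb9 and Hoxc6 the filled symbols of both groups lie to the right of the open ones, and for Hoxb3 they lie to the left.

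Of the 9 tested genes that were not called, Hoxc4 and Hoxc13 were nearest, and in opposite directions. Hoxc4 read 9.04 and 11.6 on the arrays numbered 1 and 12.6 and 16.4 on those numbered 2 (log2 difference 0.58, SE 0.12, adjusted p = 0.068). Hoxc13, a gene of hair and nail, read 90.1 and 74.6 against 49.7 and 54.2 (log2 difference -0.57, SE 0.13, adjusted p = 0.078). These genes mark the ends of cluster C, whose tested members in between were Hoxc6, lower in number 2, and Hoxc12, at 0.06 (SE 0.11).

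The log2 difference was 0.39 (SE 0.17) for Hoxb6, which read 207 and 239 on the arrays numbered 1 and 287 and 262 on those numbered 2. It was -0.38 (SE 0.13) for Hoxb2, which read 191 and 192 against 142 and 136. Their adjusted p values were 0.24 and 0.17. Hoxd8 differed by -0.24 in each group. Hoxa4, Hoxa7 and Hoxa9 differed by 0.04, -0.12 and -0.03, and none of the 3 was called. Cluster B therefore held genes that were lower in number 2 (Hoxb4, Hoxb7, Hoxb9) and a gene that was higher (Hoxb3).

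Hoxb13 and Hoxb5, which the filter had left out, were measured on both arrays numbered 1 and below the flag on both numbered 2. Hoxb13, a gene of the tail bud and the prostate, read 24.1 and 18.4 against 2.996 and 5.04. It was higher in number 1, with an approximate bound of 1.89-fold. Hoxb5 read 19.6 and 15.7 against 11.3 and 11.1 and was higher too, with an approximate bound of 1.42-fold. These bounds set the mean of the arrays numbered 1 against, for each array numbered 2, the higher of the gene's own signal and the lowest signal with the flag. That lowest signal is no strict limit: on siErbB4 2 it was 9.14, and Hoxb5 lacked the flag there at 11.1. When features with the flag on both arrays of a number were admitted as well, a filter chosen after seeing the data, 7 of 17 Hox genes were called, Hoxb13 among them, beside 8.18% of 21104 features. Both genes pass that filter only through the number in which they are high, so this count supports nothing about them.

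All 15 tested Hox genes had the same sign of the number difference in siScr and in siErbB4, beside 70.3% of all features. For 10 of the 15 the arrays numbered 1 and numbered 2 did not overlap, with 7 lower and 3 higher in number 2, beside 55.4% of all features (26.0% lower and 29.4% higher). The median size of the log2 difference, without its sign, was 0.57 over the Hox genes and 0.19 over all features. With its sign the median was -0.24 over the Hox genes, -0.24 within siScr and -0.24 within siErbB4, and 0.02 over all features. The difference was above 0 for 5 Hox genes and below 0 for 10, beside 53.0% of all features above 0, and 3 of 15 (Hoxb9, Hoxc6 and Hoxb4) had a size of 1 or more, beside 5.27%. By cluster the median was -0.57 over 6 genes of cluster B, -0.25 over 4 of cluster C and -0.08 over 4 of cluster A. By paralogue number it was -0.17 for genes 1 to 4, -0.24 for genes 5 to 8 and -0.30 for genes 9 to 13, over 6, 5 and 4 genes. These medians are descriptions of few genes.

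**Figure D3:**
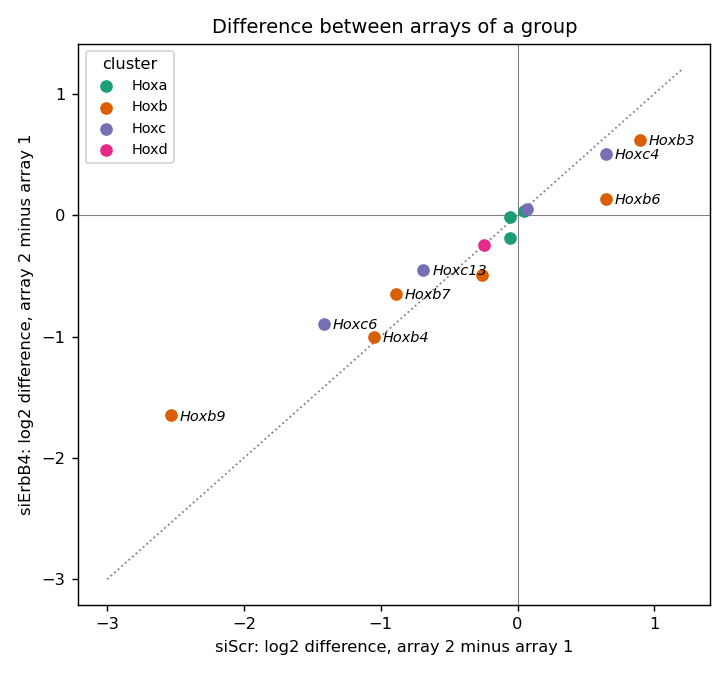
Log2 difference between the array numbered 2 and the array numbered 1, in siScr (horizontal axis) and in siErbB4 (vertical axis), for 14 of the 15 tested Hox genes, coloured by cluster, with a dotted line of equality. All points lie to the lower left or the upper right of the lines at 0, and Hoxb9 lies farthest from 0 at -2.53 in siScr and -1.65 in siErbB4.

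The genes next to the clusters were tested in the same fits. The 3 nearest protein-coding genes on each side of each cluster make 24, of which 22 were on the array and 21 were tested. They were Skap2, Snx10, Cbx3, Evx1, Hibadh and Tax1bp1 beside cluster A, Ttll6, Calcoco2, Atp5g1, Skap1, Snx11 and Cbx1 beside cluster B, Calcoco1, Atp5g2, Smug1, Cbx5 and Hnrnpa1 beside cluster C, and Lnpk, Atp5g3, Mtx2 and Hnrnpa3 beside cluster D. limma called 0 of 21 between groups, beside 0.0% of all features, and 0 of 21 between numbers, beside 7.31%, a share at which few calls would fall among 21 genes. At an unadjusted p under 0.05 the counts were 0, beside 1.76%, and 2, beside 25.9%. The median size of their number difference was 0.13, beside 0.19 over all features. The widest were those of Evx1, the homeobox gene beside Hoxa13, at -1.04 (SE 0.25, adjusted p = 0.092), and Skap1, the gene beyond Hoxb1, at -1.04 (SE 0.42, adjusted p = 0.22). Atp5g1 at 0.36 and Hnrnpa1 at 0.33 came next. Between siErbB4 and siScr the widest were Calcoco2 at 0.37 (SE 0.15) and Skap1 at 0.31 (SE 0.68).

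Lists of the factors that act on Hox genes, or with them, showed no call between siErbB4 and siScr. Of the 9 TALE cofactors (PBX, MEIS and PKNOX proteins) all were tested, with a median log2 difference of -0.02. Pknox2 at -0.29 (SE 0.24), Meis3 at -0.20 and Meis2 at 0.17 had the lowest p. The medians were -0.06 over 19 retinoic acid genes, 0.23 over 12 regulators of axis patterning, 0.13 over 26 Polycomb subunits and 0.07 over 16 genes of MLL complexes and H3K27 demethylases. These medians rest on single arrays: that of the axis regulators was 0.022 without siErbB4 1 and 0.56 without siErbB4 2, and that of the retinoic acid genes ran from -0.18 to 0.10 with 1 array left out. The genes with the lowest p in these lists were Stra8 at 0.80, Rxrg at -0.24 and Cyp26a1 at 0.88, then Egr2 at 0.93, Fgf8 at 0.48 and Gdf3 at 0.42. In the Polycomb list they were Aebp2 at 0.35, Eed at 0.32 and Mtf2 at 0.35, and in the MLL list Psip1 at 0.32, Aff4 at 0.18 and Kmt2c at 0.18. Of 8 ParaHox and Evx genes 2 were tested, Cdx1 at 0.47 and Evx1 at 0.22. Of 17 listed noncoding RNA genes of the clusters, 2 were on the array and 1, Hoxa11os, was tested, at -0.08 (SE 0.16).

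Between the replicate numbers the retinoic acid list held 5 called genes of 19, beside 7.31% of all features: 3 were lower, beside 3.55%, and 2 higher, beside 3.76%. Cyp26b1 and Cyp26a1 encode enzymes that break retinoic acid down, and they moved in opposite directions: Cyp26b1 was lower in number 2 by a log2 difference of -1.55 (SE 0.12, adjusted p = 0.021) and Cyp26a1 higher by 1.05 (SE 0.13, adjusted p = 0.028). Rarg, a retinoic acid receptor, was lower at -1.13, the retinol transporter gene Stra6 higher at 0.89, and Stra8 lower at -0.73. The Stra6 probe was dim and well above background on 3 arrays only. The median over the list was -0.13 (-0.27 without siErbB4 1). Of 12 axis regulators 2 were called, both lower, beside 3.55% of all features: Cdx1, which acts directly on Hox genes, at -1.48 (SE 0.18, adjusted p = 0.028) and Lin28b at -0.88 (SE 0.14, adjusted p = 0.044). Gbx2, a gene of the anterior hindbrain, was not called at -1.09 (adjusted p = 0.091). Cdx2, Cdx4, T, Wnt3a, Wnt8a and Msgn1 did not pass the filter.

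Of 26 Polycomb subunits 1 was called, beside 7.31% of all features. It was Phf19, a PRC2 accessory factor, at 0.89 (SE 0.11, adjusted p = 0.030). Ezh2, the PRC2 methyltransferase, was at 0.68 (adjusted p = 0.079), and the median was 0.11 (0.049 to 0.23 with 1 array left out). None of 16 genes of MLL complexes and H3K27 demethylases was called, with a median of 0.07 and with Aff1 at -0.46 and Psip1 at 0.46. None of 9 TALE cofactors was called, with Pknox2 at -0.42, Pbx4 at -0.44 and Meis1 at -0.36 and a median of -0.24 (-0.26 to -0.11 with 1 array left out). Hoxa11os was at 0.06 (SE 0.14).

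Markers of several cell types moved with the replicate number as well, and the part of cell composition in the Hox values was not tested. With 1 array left out, 1 of the numbers held 1 array, so those fits are given as medians alone. The calls in the lists also moved with the processing, as given in the last section. Fibroblast and matrix markers were called lower in number 2 for 8 of 20 genes, beside 3.55% of all features. Their median of -1.01 was -0.63 without siScr 1 and -1.50 without siErbB4 1. Col1a1, the main collagen chain of connective tissue, was at -2.27 (SE 0.12, adjusted p = 0.021), Postn at -1.89 and Dcn at -1.54. Their summed scaled signal, in multiples of the array's 75th percentile, was 286 and 288 on the siScr arrays and 264 and 237 on the siErbB4 arrays, and Tcf21 and Fap did not pass the filter. Cardiomyocyte markers went the other way, with 5 of 17 called higher, beside 3.76% of all features, and a median of 0.54. Nppa was at 1.31 (SE 0.13, adjusted p = 0.023), Myl3 at 1.06 and Tnni3 at 0.97, and the summed signal of the list was 1673 and 1618 on the arrays numbered 1 and 2355 and 2156 on those numbered 2.

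Mesoderm of the paraxial and limb type, in which Hox genes are widely used, had 5 of 17 markers called lower, beside 3.55% of all features, and 1 higher, beside 3.76%. Foxc1 was at -2.57 (SE 0.12, adjusted p = 0.021), Osr1 at -1.19 and Twist1 at -1.12, while Tbx3 was the gene called higher, at 1.33. The list's summed signal was 19.4 and 18.6 on the arrays numbered 1 and 26.4 and 23.0 on those numbered 2, and Meox1, Meox2 and Pax9 did not pass the filter. By the same background, endothelial and blood markers had 3 of 10 called lower (Runx1 at -2.06, Tal1 at -1.60 and Cdh5 at -1.51), with summed signals from 11.3 to 13.5 and with Tie1, Emcn, Erg, Gata1, Hba-a1, Ptprc and Spi1 not passing the filter. Smooth muscle markers had 3 of 9 called lower (Acta2 at -1.22, Lmod1 at -1.12 and Tagln at -1.04), Myh11 did not pass the filter, and the summed signal was 563 and 449 on the arrays numbered 1 and 271 and 261 on those numbered 2. The median of the smooth muscle list was -0.13, at -0.40 within siScr and 0.06 within siErbB4. It ran from -0.44 to 0.05 with 1 array left out. The sign was the same in both groups for 4 of the 9 genes, beside 70.3% of all features.

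Neural tube markers, the other place where Hox genes are strongly used, had 2 of 13 called lower, beside 3.55% of all features (Isl1 at -1.49 and Tubb3 at -1.33), and 1 higher, beside 3.76% (Irx3 at 1.45). Their summed signal was 22.2 and 16.8 on the arrays numbered 1 and 16.6 and 13.7 on those numbered 2. The median of the neural list was -0.06, with 6 genes above and 7 below 0. It was -0.02 within siScr and 0.18 within siErbB4, and ran from -0.08 to 0.15 with 1 array left out. Pax6, Pax7, Neurog2 and Map2 were among those that did not pass the filter. Isl1 is also made in second heart field cells. Of 13 endoderm markers 2 were called higher, Sox17 at 1.36 and Ttr at 0.97, with Alb and Apoa1 among those not passing the filter. None of 16 pluripotency markers was called, with Dppa4 at -0.58 (adjusted p = 0.082).

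**Figure D4:**
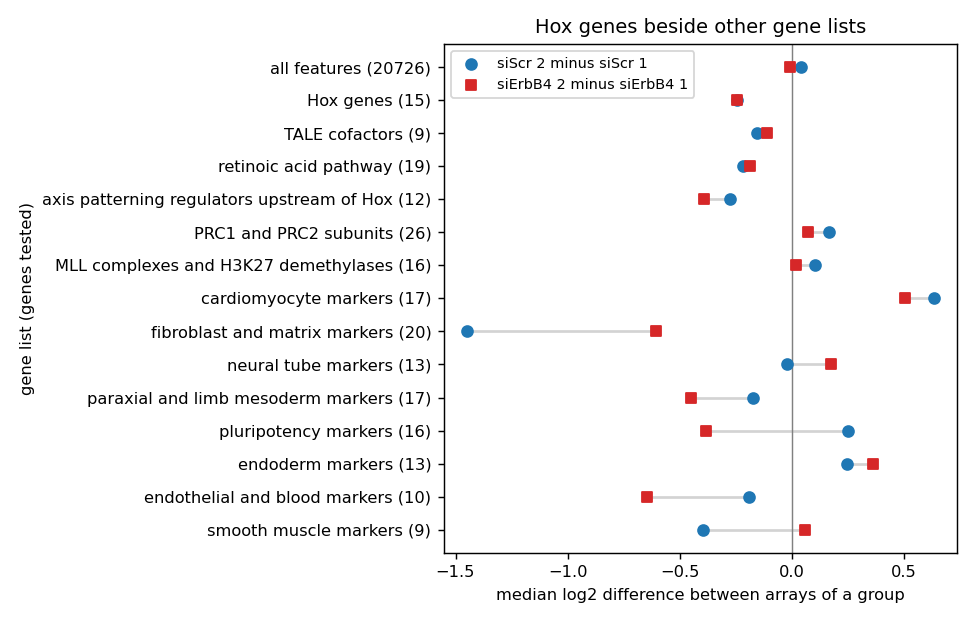
Median log2 difference between the array numbered 2 and the array numbered 1 by gene list, in siScr (circles) and in siErbB4 (squares), with the number of tested genes in brackets. The ParaHox and Evx list and the list of noncoding RNA genes, with few tested genes, are not shown. The Hox median is -0.24 in both groups. Among the lists shown, fibroblast and matrix markers lie lowest in siScr, endothelial and blood markers lowest in siErbB4, and cardiomyocyte markers highest in both.

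Between siErbB4 and siScr none of these markers was called. All 20 fibroblast and matrix markers were below 0, with a median log2 difference of -0.48, but the median was 0.23 without siScr 1 and -1.14 without siScr 2. Of 16 pluripotency markers 15 were above 0, with a median of 0.47 that was 0.20 without siErbB4 1. The other 6 marker lists had medians from -0.20 to 0.25, and from -0.60 to 0.36 with 1 array left out. The Hox median of -0.09 lies within this range, and whether cell composition bears on it was not tested.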

How the data were processed

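RNA of 4 samples, 2 per group, was measured on one-colour Agilent arrays and read with the scanner software Agilent Feature Extraction, version 10.7.1.1 per the file headers. The deposited processed intensity of each spot was background-subtracted and not scaled between arrays, per the file headers. The authors' deposited table holds log2 values. Set against the scanner files, every column matched the log2 of the processed signal after subtraction of its 75th percentile (r = 1, largest difference 0.0029), and column medians were -3.81, -3.83, -3.84 and -3.86. It served as an alternative.

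From the scanner files, 1377 control spots of 44397 and outlier spots (131 to 179 per array) were left out and spots of a probe averaged. Of 39429 probes, 27502 were named through RefSeq accessions (GRCm38.p6); the array's annotation names build mm9. Log2 signals minus the 75th percentile were kept where well above background on both arrays of a group, with the brightest probe per gene, which left 20726 features, 14989 of them named. Groups were compared with limma 3.58.1 (R 4.3.3; lmFit, eBayes, two-sided, Benjamini-Hochberg over all features, 0.05), and replicate numbers with the group as a term. The fits were tested on data simulated with independent noise and a common spread for all features. Same-numbered arrays here deviate together, so that test checks the calculation and not the calls. Alternatives were normexp (offset 50, on median signals, since no mean signal column was present), quantile normalization, other filters, averaged probes, a replicate block and leaving out arrays. The genes, lists and tests were chosen with earlier results of these data known. The text names the Hox genes, Erbb4, all flanking genes, and the 3 genes of lowest p per list where the list is described, plus others said to be called or dim. Some genes that this rule names are left unreported, though they count in the totals. The number of arrays limits the precision.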

Additional observations from a re-analysis of the deposited data

How the results depend on the processing

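Between siErbB4 and siScr, 0 of the tested Hox genes were called under every alternative run; without a filter 1 of 39 had an unadjusted p under 0.05. With the replicate number as a replicate block, limma called 0 of 15, beside 0.0% of all features, with a lowest adjusted p of 0.64. Of the 15, 5 had an unadjusted p under 0.05. The share of all features at that unadjusted p was not counted with the block or without a filter. These unadjusted counts are therefore not read as particular to the Hox genes. Deviations of same-numbered arrays from their group means correlated at 0.679 over 20726 features and 0.971 over the 15 Hox genes. Over all features, same-numbered arrays correlated at 0.994 and 0.997, and arrays of the same group at 0.987 and 0.990. There are 2 pairs, the place on the slide goes with the number, and the labels do not say what else same-numbered arrays share. The median over the Hox genes ran from -0.12 to 0.14 with 1 array left out.

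Between the numbers, 6 of 15 Hox genes were called, beside 7.31% of all features (1516 of 20726). The count was 5 with normexp, beside 13.2% (2728 features), 4 with quantile normalization, beside 6.36%, and 5 with averaged probes, beside 7.99%. It was 6 with the deposited table, beside 7.36%, and 5 of 12 among probes above background on all arrays, beside 10.8%. With the added filter it was 7 of 17, beside 8.18%. Without a filter 0 of 39 were called, as were 0 of 32388 features. In that setting 14 of 39 Hox genes had an unadjusted p under 0.05 by limma. The share of all features at that p was not counted, so this count is not read as particular to the Hox genes. Without the group term 1, Hoxc6, was called, and with 1 array left out 0 to 2. The median of -0.24 became -0.12 with normexp, -0.38 without a filter and with the added filter, and -0.31 with probes above background on all arrays; it ran from -0.46 to -0.17 with 1 array left out. All features called numbered 0 without siScr 1 or siScr 2, 1539 without siErbB4 1 and 72 without siErbB4 2. By a weaker flag, positive and significant, 34, 31, 34 and 31 Hox genes were detected on siScr 1, siScr 2, siErbB4 1 and siErbB4 2. Calls in the gene lists moved with the setting too. Fibroblast and matrix markers called lower numbered 14 of 20 with normexp, 5 with quantile normalization and 3 without the group term. Cardiomyocyte markers called higher numbered 11, 3 and 4 of 17. All features called were 13.2%, 6.36% and 5.23%. Without the group term 2 of 19 retinoic acid genes and 0 of 12 axis regulators were called. No list gene was called without a filter, and no feature was.

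The sign of some small differences turned, and the cause was not tested. Between groups, normexp gave -0.043 for Hoxc4, 0.033 for Hoxc12, 0.027 for Hoxa11os and -0.10 for Skap1, and averaged probes 0.017 for Hoxb3. Between numbers, normexp gave 0.017 for Hoxa9 and -0.0053 for Hoxa11os. With 1 array left out, group differences ran from -0.29 to 0.21 for Hoxb2, -0.60 to 0.29 for Hoxb3, -0.87 to 0.18 for Hoxb4, -0.30 to 0.35 for Hoxb6, -0.12 to 0.77 for Hoxb7, -2.06 to 0.47 for Hoxb9, -0.88 to 0.54 for Hoxc6, -0.43 to 0.26 for Hoxc13, -0.44 to 0.035 for Meis3, -0.41 to 1.35 for Cdx1, -0.53 to 0.98 for Evx1, -0.64 to 1.25 for Skap1 and -0.20 to 0.044 for Hoxa11os. Number differences ran from -0.043 to 0.12 for Hoxa4, -0.17 to 0.098 for Hoxa9, -0.019 to 0.14 for Hoxc12 and -0.066 to 0.19 for Hoxa11os. No called Hox gene changed sign. Signal over background limits Hoxa4, Hoxb7 and Hoxc4, each well above background on 3 arrays, and Stra6 of the retinoic acid list likewise.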
